A study of Mus musculus with 2 samples.

Results

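miR-221 and miR-222 are a pair of microRNAs (miRNAs, short RNAs that guide the silencing of messenger RNAs) whose genes lie side by side on the mouse X chromosome. They were chosen here by name, as the non-control spots annotated mmu-miR-221 or mmu-miR-222, which gave 2 of the 567 mouse miRNAs on the array. Each had 2 probes with 10 spots per probe, so 20 spots per miRNA on each array. The study profiled microvesicles shed into the culture medium by 3T3-L1 cells on their way to becoming adipocytes. 3T3-L1 is a mouse embryonic fibroblast-derived preadipocyte line that accumulates lipid after hormonal induction. Vesicles were collected by ultracentrifugation from medium conditioned for 48 h between day 8 and day 10 (late window) or between day 2 and day 4 (early window), with 1 array per window. In both windows the cells had been grown with 10% fetal calf serum and differentiation had been started with a mix of 3-isobutyl-1-methylxanthine (0.5 mM), insulin (10 µg/ml) and dexamethasone (0.25 µM), and 100 ng of vesicle RNA was labelled with Cy3. Serum carries miRNAs of its own, and no value here separates them from those of the cells. With 1 array per window no difference could be checked against replicates or tested, and the errors below describe spots of 1 array. Both arrays lay on 1 slide, and preparation, hybridisation and window cannot be told apart.

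miR-221 and miR-222 share a seed, the stretch near the 5′ end that pairs with target messages, and are known for repressing the cell-cycle inhibitor Cdkn1b (p27) and the receptor kinase Kit. They are abundant in proliferating cells and, in human endothelial cells, restrain the response to the KIT ligand. In fat they are known to fall while 3T3-L1 preadipocytes differentiate, and to be raised in adipose tissue of obese mice.

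The mature sequences are shown because the members share a seed and differ in the remainder. They are RefSeq's, on GRCm38.p6, 5′ to 3′, both from the minus strand of chromosome X, with the seed (bases 2 to 8) in capitals.
mmu-miR-221-3p: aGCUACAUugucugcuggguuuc
mmu-miR-222-3p: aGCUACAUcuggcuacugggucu
Both members were matched in the RefSeq table, at 19146307 to 19146329 for miR-221-3p and 19146901 to 19146923 for miR-222-3p. The first 8 bases of the sequences were identical, and without gaps only 3 of the 15 bases after the seed matched. That count allows no shift, and both carry the run cugggu near the 3′ end, offset by a base. It therefore does not show where after the seed the members differ most. Among the 1738 mature mouse miRNAs of the table, 3 carried this seed, the remaining one being miR-1928, for which the array had no entry.
mmu-miR-1928: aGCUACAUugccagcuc

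The hairpin precursors, from the same table, show where these mature sequences lie, in capitals, on the 3′ arm. The array files name no arm for either entry, and the 3′ arm is taken here as the one meant.
Mir221: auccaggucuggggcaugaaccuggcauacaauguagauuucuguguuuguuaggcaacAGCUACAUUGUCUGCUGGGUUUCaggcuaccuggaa
Mir222: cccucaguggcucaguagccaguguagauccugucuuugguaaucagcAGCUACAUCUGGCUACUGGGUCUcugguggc
Mir221 (chrX:19146294-19146388) and Mir222 (chrX:19146893-19146971) were separated by 504 bases. No gene of the table contained them, and the nearest other gene was the long noncoding RNA Gm14636, 9499 bases away. In the array files, for which the sources used here name no genome build, the miR-221 probes A_54_P2640 and A_54_P3830 were placed on chromosome X at 18723433 to 18723451 and to 18723452, spans of 19 and 20 bases. The miR-222 probes A_54_P2643 and A_54_P2644 had shorter spans of 13 and 14 bases, at 18724029 to 18724041 and to 18724042. A probe's signal is not an amount, so no level is set against another probe's below.

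miR-221 was measured clearly in both windows, and its signal was lower in the late vesicles, by less than 2-fold. Probe A_54_P2640 gave spot intensities (background-subtracted, linear, unscaled) with a lowest of 7.13, a median of 8.59 and a highest of 10.5 at day 8-10, against 12.6, 13.5 and 17.3 at day 2-4. Probe A_54_P3830 gave 14.4, 16.3 and 17.2 at day 8-10, against 24.7, 27.7 and 29.7 at day 2-4. Within each probe every late spot was dimmer than every early spot. After scaling, the highest late spot was still below the lowest early spot for each probe (0.111 against 0.116 of the array's 75th percentile for A_54_P2640, and 0.180 against 0.228 for A_54_P3830). Such a separation was common: of the 279 probes detected on both arrays, 74 (26.5%) had all scaled spots lower at day 8-10, and another 105 (37.6%) had them all higher. One spot of A_54_P3830 on each array, at 13.1 for day 8-10 and 20.9 for day 2-4, carried the scanner software's outlier flag and was left out.

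All 20 miR-221 spots were well above background, by the scanner software's flag, on each array. The means over spots were 8.51 ± 1.14 at day 8-10 and 14.2 ± 1.63 at day 2-4 for A_54_P2640 (SD, n = 10 spots each), and 16.2 ± 0.867 at day 8-10 and 27.5 ± 1.54 at day 2-4 for A_54_P3830 (SD, n = 9 spots each). The 2 probes thus gave nearly the same change. They start at the same position, with spans of 19 and 20 bases, and read the same labelled RNA, so their likeness is no independent check. Their log2 differences, day 8-10 minus day 2-4 after scaling, were -0.56 (spot SE 0.079) and -0.58 (spot SE 0.038). The mean over both probes was -0.57 (spot SE 0.044), a 1.48-fold lower signal at day 8-10. This is 13.1 times its spot error, but that error holds no variation between vesicle preparations or arrays. In a preparation of this kind, fewer vesicles that carry a miRNA and less of it per vesicle cannot be told apart.

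**Figure D1:**
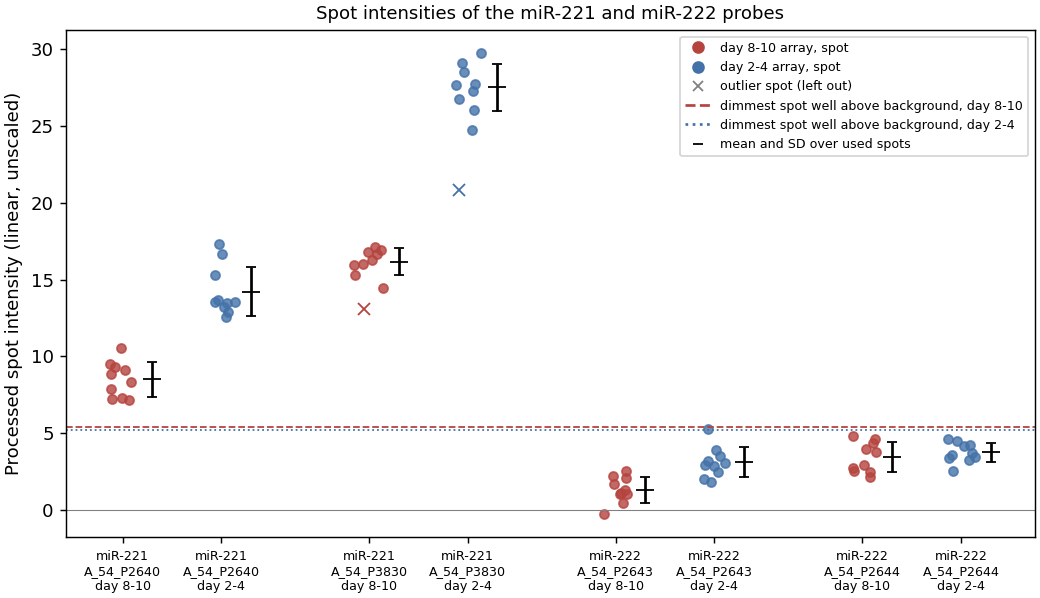
Processed intensity (linear, unscaled, y axis) of each spot of the 2 miR-221 probes and 2 miR-222 probes on the day 8-10 and day 2-4 arrays, with mean and SD over the spots used; crosses are outlier spots and horizontal lines the dimmest spot well above background on each array. All miR-221 spots lie above the lines, and within each probe the late ones lie below the early ones. Of the 40 miR-222 spots, 1, on the day 2-4 array, passes its line.

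miR-222 was not detected in either window by the well-above-background rule. Of its 20 spots, 0 were well above background at day 8-10 and 1 at day 2-4, and neither probe reached the required share of more than 0.5 of its spots. Probe A_54_P2643 gave intensities of -0.27 at the lowest spot, 1.21 at the median and 2.52 at the highest at day 8-10, against 1.81, 2.98 and 5.23 at day 2-4. Probe A_54_P2644 gave 2.16, 3.35 and 4.83 at day 8-10, against 2.52, 3.63 and 4.64 at day 2-4. The spots of the windows overlapped for both probes. On these arrays the flag amounted to an intensity limit: the dimmest flagged mouse miRNA spot had 5.39 at day 8-10 and 5.21 at day 2-4, and the brightest spot without the flag had 5.36 at day 8-10 and 5.20 at day 2-4.

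The miR-222 spots were nevertheless brighter than most negative control spots. The 672 negative control spots averaged -0.25 ± 1.26 at day 8-10 and -0.25 ± 1.14 at day 2-4 (SD over spots), and their 95th percentile was 1.57 at day 8-10 and 1.38 at day 2-4. Of the 20 miR-222 spots, 14 lay above that percentile at day 8-10 and 20 at day 2-4. The software's flag for a positive and significant signal was set on 16 of the 20 at day 8-10 and 20 at day 2-4. Its flag for the negative control range was set on 10 of 10 A_54_P2643 spots at day 8-10 and 5 at day 2-4. For A_54_P2644 it was set on 5 of 10 at day 8-10 and 1 at day 2-4. The probe means of A_54_P2644 were 3.43 ± 0.984 at day 8-10 and 3.74 ± 0.641 at day 2-4 (SD, n = 10 spots each), and 99.3% of negative control spots at day 8-10 and 99.4% at day 2-4 lay below them. The mean of A_54_P2643 was 1.31 ± 0.845 at day 8-10, above 92.0% of negative control spots, and 3.09 ± 0.983 at day 2-4, above 99.3%. The windows therefore differed by more than 1 spot SD for A_54_P2643 and by less for A_54_P2644.

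The scanner software combines a miRNA's probes into a gene signal with its own error and detection call, and this call was more permissive. The gene signal is not the plain sum of the probe means. The call marked miR-222 as detected on both arrays. The gene signal of miR-222 was 3.16 ± 1.05 at day 8-10 and 4.52 ± 1.03 at day 2-4 (± the software's error). These gene signals differ by 1.36, little more than the error of either. For miR-221 the gene signal was 16.4 ± 1.59 at day 8-10 and 27.6 ± 2.27 at day 2-4. Because both windows lay below the detection rule, no fold is given for miR-222, and whether the 2 members changed alike cannot be read from these arrays. The undetected signal does not show that miR-222 was absent.

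Against the whole array, the miR-221 difference was modest. Of the 567 mouse miRNAs, 166 were detected at day 8-10, 156 at day 2-4 and 145 on both arrays. Of the 145, 23 (15.9%) were higher at day 8-10 by at least 2-fold and 11 (7.59%) at least 2-fold lower, counting those whose difference exceeded 2 spot standard errors, and miR-221 was in neither set. The median log2 difference of the 145 was 0.20, so miR-221 lay 0.77 below it on the log2 scale, and 25 of the 145 (17.2%) had a more negative difference. Dividing each array by another single factor changes neither this distance nor the rank. The scaling did decide on which side of 2-fold miR-221 fell: when the 75th percentile was that of all probes, its log2 difference was -1.08, past 2-fold, and the median of all miRNAs was then -0.30. With normexp, a background correction run here with an offset of 50 added to every signal, the miR-221 difference shrank to -0.051. That was 0.17 below the median of 0.12. The offset exceeded the miR-221 probe means (8.51 to 27.5), and adding it draws dim signals together. The correction was not run without the offset, so their parts in the shrinkage were not tested.

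The dimness of miR-221 is visible in the raw values. Before background subtraction its used spots averaged 57.7 at day 8-10 and 66.0 at day 2-4, over a local background that averaged 43.4 at day 8-10 and 43.5 at day 2-4. For miR-222 the raw spots averaged 47.8 at day 8-10 and 49.0 at day 2-4, over a local background of 43.0 at day 8-10 and 43.3 at day 2-4.

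**Figure D2:**
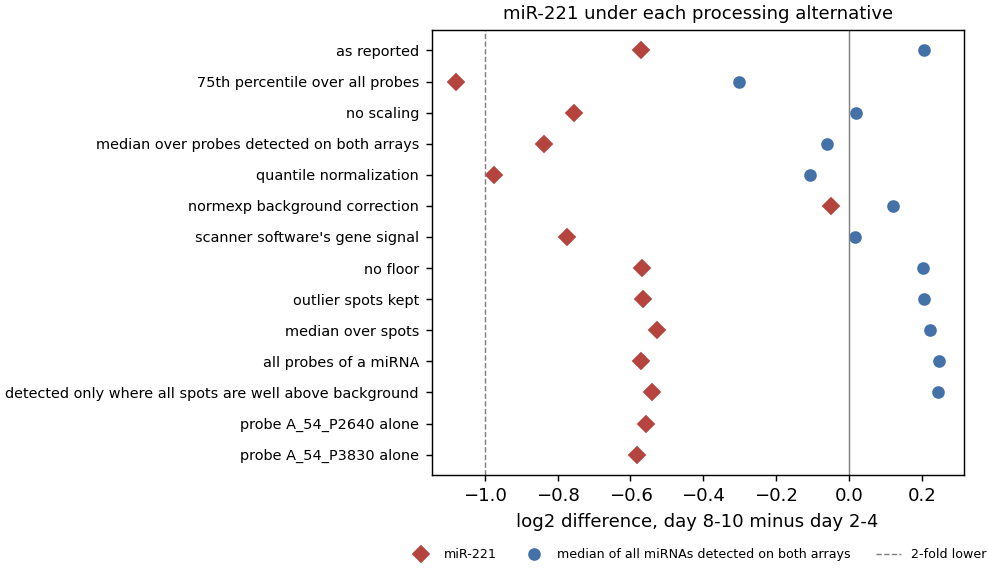
Log2 difference of miR-221, day 8-10 minus day 2-4 (diamonds, x axis), as reported and under each alternative named on the y axis, with the median of all miRNAs detected on both arrays (circles, not drawn for single probes). miR-221 lies between -1.08 and -0.051 and below that median under every alternative for which it is drawn.

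The 3 miRNAs whose log2 differences were nearest to that of miR-221 were miR-15b (-0.58), a member of a cell-cycle family, miR-328 (-0.59) and miR-139-3p (-0.55). This likeness is a match of 1 difference over 2 arrays.

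The pair was set among other miRNAs reported to decline during fat cell differentiation or to hold it back, 11 entries in all. This list too was chosen with earlier results of these data known. Of these, 7 were detected on both arrays, 2 (miR-155 and miR-138) were detected only at day 2-4, and 2 (miR-222 and miR-130b) on neither. Over all 567 mouse miRNAs, 166 were detected at day 8-10, 156 at day 2-4 and 145 on both. None of the 7 was at least 2-fold higher or lower, beside the 15.9% and 7.59% of all miRNAs. Their median log2 difference was 0.26, against 0.20 over all 145. Of the 7, 5 lay above and 2 below 0, beside 91 above and 54 below over all 145. With the 75th percentile over all probes, 6 of the 7 lay below 0. miR-221 had the lowest of the 7 differences, and the second lowest under normexp.

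The values of the other detected members follow, as unscaled probe means. miR-27a, which represses the adipogenic regulator Pparg, gave probe means of 63.3 and 232 at day 8-10, against 60.0 and 220 at day 2-4. Its relative miR-27b was read by 1 of its 2 probes, at 14.9 at day 8-10 and 9.47 at day 2-4. miR-130a, another repressor of Pparg, gave 172 and 275 at day 8-10, against 142 and 227 at day 2-4. These members were all brighter in the late window before scaling. miR-125b-5p, the other member below 0, gave 17.9 and 399 at day 8-10, against 23.1 and 571 at day 2-4. miR-31 and miR-224 lay nearer the detection limit, with probe means of 6.73 to 17.3 and 6.34 to 17.2 at day 8-10, against 6.75 to 15.7 and 6.98 to 16.2 at day 2-4. miR-155, which acts in inflammation, had means of 0.573 and 4.46 at day 8-10, against 5.76 and 11.0 at day 2-4, and was at least 1.26-fold lower in the late window. miR-138 had 3.79 at day 8-10 and 6.01 at day 2-4 with the 1 probe in use, which gave no usable bound. Thus miR-221, miR-125b-5p, miR-155 and miR-138 had lower signals at day 8-10 before scaling, and miR-27a, miR-27b and miR-130a higher ones.

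**Figure D3:**
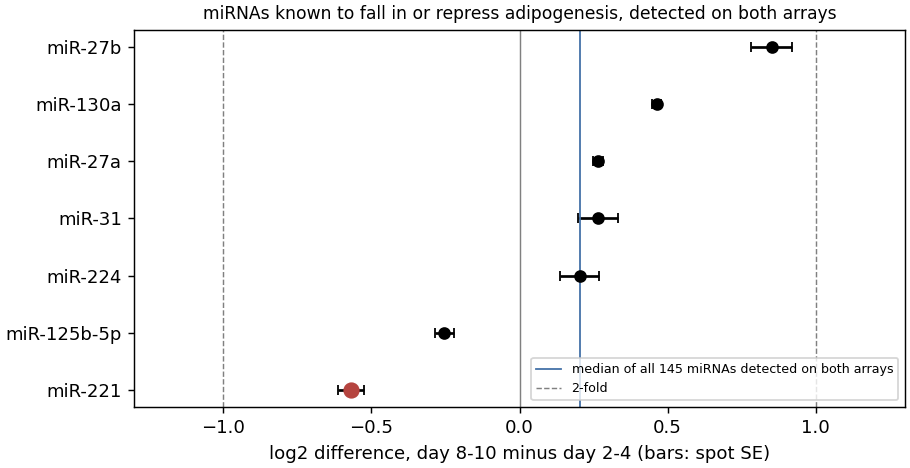
Log2 difference, day 8-10 minus day 2-4 (x axis), of the 7 listed miRNAs detected on both arrays, with bars for the spot SE, dashed lines at 2-fold and a solid line at the median of all 145 miRNAs. miR-221 is lowest at -0.57 and miR-27b highest at 0.85, and all lie within 2-fold.

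On chromosome X the array had 81 mouse entries by the positions in the files. Of these, 19 were detected on at least 1 array and 14 on both. Of all 567, 166 were detected at day 8-10, 156 at day 2-4 and 145 on both. Of the 14 chromosome X entries, 2 were higher at day 8-10 by at least 2-fold and 1 was lower by at least 2-fold. The shares over all miRNAs were 15.9% and 7.59%. The median log2 difference of the 14 was 0.039, against 0.20 over all 145. The entries of the chromosome lay on both sides of 0, with 7 above and 7 below, beside 91 above and 54 below over all 145. The 6 with the largest differences were miR-718 (no more than a lower bound, 1.67), miR-98 of the let-7 family (1.17), miR-322 of the miR-15/16 seed family (-1.17), miR-188-5p (-0.77), miR-221 itself and miR-361 (-0.46). For miR-718 and miR-98, 1 of the 2 probes in use was not detected at day 2-4, and that of miR-718, with a mean of 3.78, lay below the floor of 4.86 set for dim values on that array. miR-188-5p gave probe means of 113 to 127 at day 8-10, against 220.5 to 246.7 at day 2-4. miR-361 gave 11.6 and 16.5 at day 8-10, against 17.4 and 26.7 at day 2-4. Detected only at day 8-10 were miR-362-3p and miR-452, at least 1.44-fold and 1.80-fold higher. Detected only at day 2-4 were miR-503, miR-450a-5p and miR-351. miR-503 was at least 4.28-fold lower at day 8-10. The bounds of miR-450a-5p (1.09-fold) and miR-351 (1.05-fold) lay within 2 spot standard errors, so no difference is read from them. Their log2 differences were -0.13 (spot SE 0.071) and -0.071 (spot SE 0.11).

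**Figure D4:**
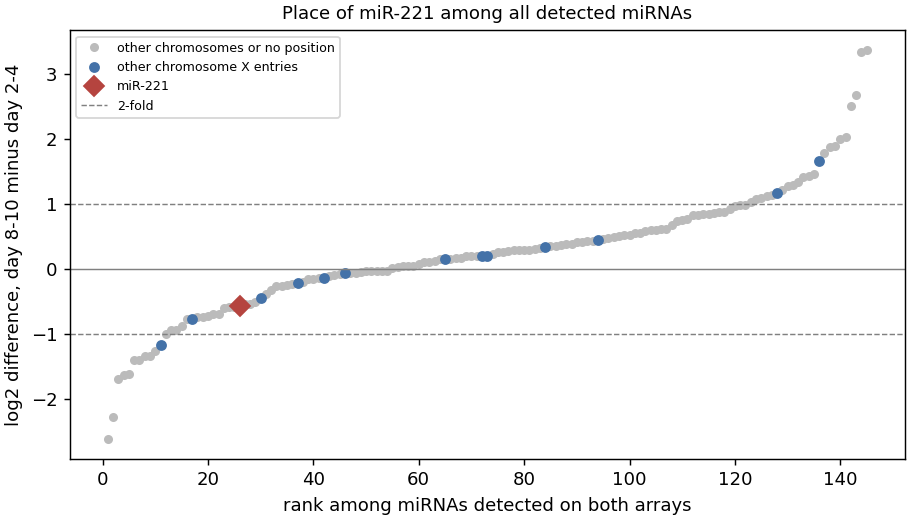
Log2 difference, day 8-10 minus day 2-4 (y axis), of the 145 miRNAs detected on both arrays, ranked from lowest to highest (x axis), with miR-221 as a diamond and the 13 other entries of chromosome X in blue. miR-221 is at rank 26, between the 2-fold lines, and the other entries of the chromosome spread over both signs.

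Markers of adipocytes and of other cell types were looked at beside these values. The marker lists were chosen with earlier results of these data known, so their counts are a description and no test. The summed gene signals given with them are unscaled. Neither of the 2 endothelial miRNAs, miR-126-3p and miR-126-5p, was detected, and their summed gene signal was 2.63 at day 8-10 and 2.42 at day 2-4. All 10 adipocyte miRNAs were detected on both arrays, 7 of them higher at day 8-10 by at least 2-fold (beside 15.9% of all miRNAs), with a summed gene signal of 1361 at day 8-10 and 575 at day 2-4. Of the 6 fibroblast miRNAs, 5 were detected on both arrays and miR-145 on neither. Of those 5, 2 were at least 2-fold lower at day 8-10 and none higher (beside 7.59% of all miRNAs lower), the median log2 difference was -0.95, and the summed gene signal was 1794 at day 8-10 and 2260.1 at day 2-4. The list was split in sign, with miR-199a-5p, miR-199b and miR-214 below 0 and miR-21 (0.16) and miR-22 (0.59) above it, and its part in the miR-221 difference was not tested. With the all-probe percentile, where the count over all miRNAs was 10 higher and 29 lower, 2 adipocyte miRNAs were at least 2-fold higher and 3 fibroblast miRNAs at least 2-fold lower. With normexp these counts were 2 and 1, beside 5 higher and 5 lower over all miRNAs. Of the 7 miRNAs of blood cells, some of which circulate in serum, 3 were detected on both arrays with log2 differences of -0.22 to 0.046 and 1, miR-144, only at day 8-10. The summed gene signal of the 7 was 921 at day 8-10 and 1002 at day 2-4. miR-451 was by far the brightest, with unscaled probe means of 462 and 866 at day 8-10, against 511 and 956 at day 2-4. The other detected ones had probe means of at most 12.8 at day 8-10 and 16.6 at day 2-4. None of the 4 muscle miRNAs and not the liver miRNA miR-122 was detected, with summed gene signals of 4.94 and 2.44 at day 8-10, against 3.79 and 2.21 at day 2-4.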

How the data were processed

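Total RNA of vesicles was hybridised to 1-colour Agilent mouse miRNA arrays, 1 per window. Per the file headers, the deposited intensity of each spot was made with Agilent Feature Extraction 9.5.3.1 as the spot signal less a background surface fitted across the array, and arrays were not normalized to each other. The series value table held the same intensity for 12493 of 12493 spots of each array (linear, medians 0.646 at day 8-10 and 0.516 at day 2-4). No spot was saturated (0 on each array). Other deposited values are flags, used as the authors' software gave them.

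Mouse miRNA spots without an outlier flag were kept (249 left out at day 8-10, 237 at day 2-4). Detection of a probe required the well-above-background flag on more than 0.5 of its spots, and detection of a miRNA at least 1 such probe. Each array was divided by the 75th percentile of the 279 probes passing on both (95.2 at day 8-10 and 108 at day 2-4), floored at its lowest detected probe (5.55 at day 8-10 and 4.86 at day 2-4) and put on the log2 scale. Values were averaged over spots, then over a miRNA's probes detected on at least 1 array. For miRNAs detected on 1 array, bounds compare that array with the higher of the floor and the miRNA's own signal on the other. These bounds make no allowance for spot error. Calls needed 2-fold and 2 spot standard errors. The number of arrays limits the precision. The calculation was tested on simulated arrays, both built from the day 2-4 array, with changes larger than that of miR-221. The simulation held no variation between arrays, so it tells nothing about the precision of the miR-221 difference. Normexp (offset 50) used limma 3.58.1 in R 4.3.3, and the rest Python 3.11.15. Named miRNAs are both members, their seed family, the listed miRNAs and markers, the 6 largest differences on chromosome X and the 3 nearest to miR-221. Members and lists were chosen with earlier results of these data known.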

Additional observations from a re-analysis of the deposited data

How the results depend on the processing

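The log2 difference of miR-221 was negative under all 13 alternatives, and 7 of them moved it by less than 2 spot standard errors. Several of those 7 could hardly act on it: both its probes were already in use, and all its spots lay above the floor. The 2 single-probe settings are parts of the mean itself. The miR-221 difference came to -1.08 with the 75th percentile over all probes, -0.97 with quantile normalization and -0.84 with scaling to the median. It was -0.77 with the scanner software's gene signal, -0.76 without scaling and -0.051 with normexp. The list median turned to -0.25 with the all-probe percentile, -0.16 with quantile normalization and -0.0038 with median scaling, and it was 0.078 without scaling, 0.12 with normexp and 0.064 with the gene signal. miRNAs at least 2-fold higher and lower numbered 10 and 29 with the all-probe percentile and 5 and 5 with normexp. Those at least 2-fold lower numbered 19 with median scaling, 17 with quantile normalization and 18 with the gene signal. On chromosome X the counts of higher and lower entries were 1 and 3 with the all-probe percentile, 1 and 2 with median scaling and 0 and 0 with normexp. The higher count there was 1 without scaling, with quantile normalization, with the gene signal and where detection needed all spots. The cause of these moves was not tested. miR-222 had no value under any alternative that uses the detection rule, and with all its probes entered most of its spots sit at the floor of each array, so a difference would be that of the floors. For the same reason its probes alone and the difference between the members gave no value. No paired analysis was possible because each window had 1 array. Signal over background limits both members, miR-222 most.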
